A study of Homo sapiens with 8 samples.

Results

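Collagen chain genes encode the polypeptides that wind in threes into the collagen triple helix. They were taken as the protein-coding genes of the count table whose symbol is COL, a type number, the letter A and a chain number. The rule found 44 genes among the 58206 in the table, all of them matched to an identifier. RNA was sequenced from 8 libraries of Alexander1, an established epithelial cell line from a human hepatocellular carcinoma. The parental group (4 libraries, genotype given as wt and Axin1 -) lacks the part of AXIN1 that binds GSK3, and Wnt signalling is constitutively active in it. The other group (4 libraries, genotype Axin1+, here called Axin1-restored) is a stable derivative made by retroviral transfer of an Axin1 plasmid and clonal selection in hygromycin B, and it is described as carrying full-length Axin1 at physiological levels. The labels give the viral transfer and selection for all 8 libraries, the parental ones included, and do not say how many clones the derivative represents or whether replicates were separate cultures. The p-values below therefore measure the spread between these libraries, which may be technical. Fold changes are Axin1-restored over parental throughout.

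Collagens fall into families by the structures they build. Fibrillar chains form the fibres of interstitial matrix, type IV chains form the network of basement membranes, type VI chains form beaded microfibrils, and the fibril-associated (FACIT) chains sit on the surface of fibres. Chains are modified, folded and assembled in the endoplasmic reticulum before secretion, and cells bind the finished matrix through integrins and other receptors. In liver, most interstitial collagen is made by stellate cells and fibroblasts rather than by hepatocytes.

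Most collagen chain genes were silent or nearly so in this line, and a small set made up nearly all of the collagen RNA. Of the 44 genes, 13 were expressed enough to be tested. Another 14 had at most 3 counts in every library, and 2 of these, the short-chain network genes COL8A1 and COL8A2, had none at all. The other 17 untested genes had more than 3 counts in at least 1 library. Of the 13 tested chains, 6 were called by the edgeR quasi-likelihood test at an adjusted p of 0.05, 5 of them higher in the Axin1-restored libraries (COL4A5, COL5A2, COL5A3, COL6A1 and COL16A1) and 1 lower (COL21A1). That is 46.2% of the tested chains, against 19.2% of all 14289 genes tested, of which 10.4% were higher and 8.77% lower. COL4A5 had 0 counts in every parental library, so it was tested on its Axin1-restored counts alone. The median log2 fold change was 0.81 over the 13 chains and 0.00 over all genes tested. All 6 called chains changed by at least 1 on the log2 scale.

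The libraries held 11232951 to 15263761 counts in the parental group and 12372436 to 26400782 in the Axin1-restored group, so that 3 counts corresponded to between 0.108 and 0.267 CPM (the gene's counts scaled to a fixed library total). Before any collagen result, the targeted gene was read. AXIN1, the scaffold protein of the complex that degrades beta-catenin, stood at 52.4 ± 3.49 CPM in the parental libraries (SD, n = 4) and at 45.4 ± 5.13 CPM in the Axin1-restored ones (SD, n = 4), a log2 difference of -0.21 with an adjusted p of 0.267 (edgeR). Counts per gene do not separate the resident from the introduced transcript, so this value does not check the labels, and every direction below rests on them. The first principal component of log2 CPM held 55.9% of the variance and set parental libraries (-46.7 to -42.6) apart from Axin1-restored ones, among which replicate 1, at 22.2, lay nearer to the parental side than the other 3 (48.7 to 56.8). Parental replicate 1 had the highest level of its group in 10 of the 12 tested chains with a parental count, and Axin1-restored replicate 1 in 8 of 13. Results that rest on these libraries are given with and without them.

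Hepatocyte markers were expressed in all libraries, at levels that differed widely between markers. CYP3A4 stayed under 1 CPM, and ALB was at 13.8 CPM in Axin1-restored replicate 1 against 445 to 681 CPM in the other restored libraries. AHSG was at 242 to 622 CPM in the parental and 34.7 to 77.2 CPM in the restored libraries. FGB went the other way, from between 688 and 916 CPM to between 2257 and 3503 CPM. The 16 hepatocyte markers, led by SERPINA1, summed to between 28129 and 32575 CPM in the parental libraries and to between 24624 and 31111 CPM in the Axin1-restored ones, with 4 higher and 4 lower among the 15 tested. Of 14 fibroblast and stellate cell markers, 11 had a mean under 1 CPM, PDGFRA and THY1 were at or near 0, and DPT was at 0 everywhere; their sum, mostly TCF21, LHX2 and TAGLN, was 78.3 to 115 CPM against 61.1 to 156 CPM, with 1 higher and 1 lower. Of 8 endothelial markers, 7 were under 1 CPM and TEK was at 0, while PECAM1 took the summed level from between 4.58 and 6.77 CPM to between 34.1 and 58.6 CPM. LYZ led the 8 leukocyte markers, which summed to 421 to 949 CPM against 672 to 920 CPM, with 7 of 8 under 1 CPM and CD3E and CSF1R at 0. Of the fibroblast and stellate cell markers 4 were tested, and over all genes tested 10.4% were higher and 8.77% lower. The part of these marker shifts in the collagen results was not tested. In bulk RNA, fewer cells that make a chain and less of its RNA per cell cannot be told apart.

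Summed over all 44 genes, collagen RNA in parental replicates 1 to 4 came to 499, 342, 335 and 349 CPM. The Axin1-restored replicates held 635, 385, 412 and 360 CPM. Both replicate 1 libraries had the highest sum of their group. COL18A1 was the leading chain in every library, with 44.4% to 49.2% of collagen counts in the parental group and 53.6% to 60.9% in the Axin1-restored group. Behind it came COL7A1 and COL21A1 in all 4 parental libraries, and COL5A3 followed by COL5A2 in Axin1-restored replicates 2 to 4. In Axin1-restored replicate 1, COL7A1 was second with 15.1% and COL5A3 the third with 12.1%. Between 21 and 24 chains had at least 1 count in a parental library, and between 30 and 33 in an Axin1-restored one. With all libraries thinned to 11232951 counts, the ranges were 19 to 24 and 26 to 30.

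**Figure D1:**
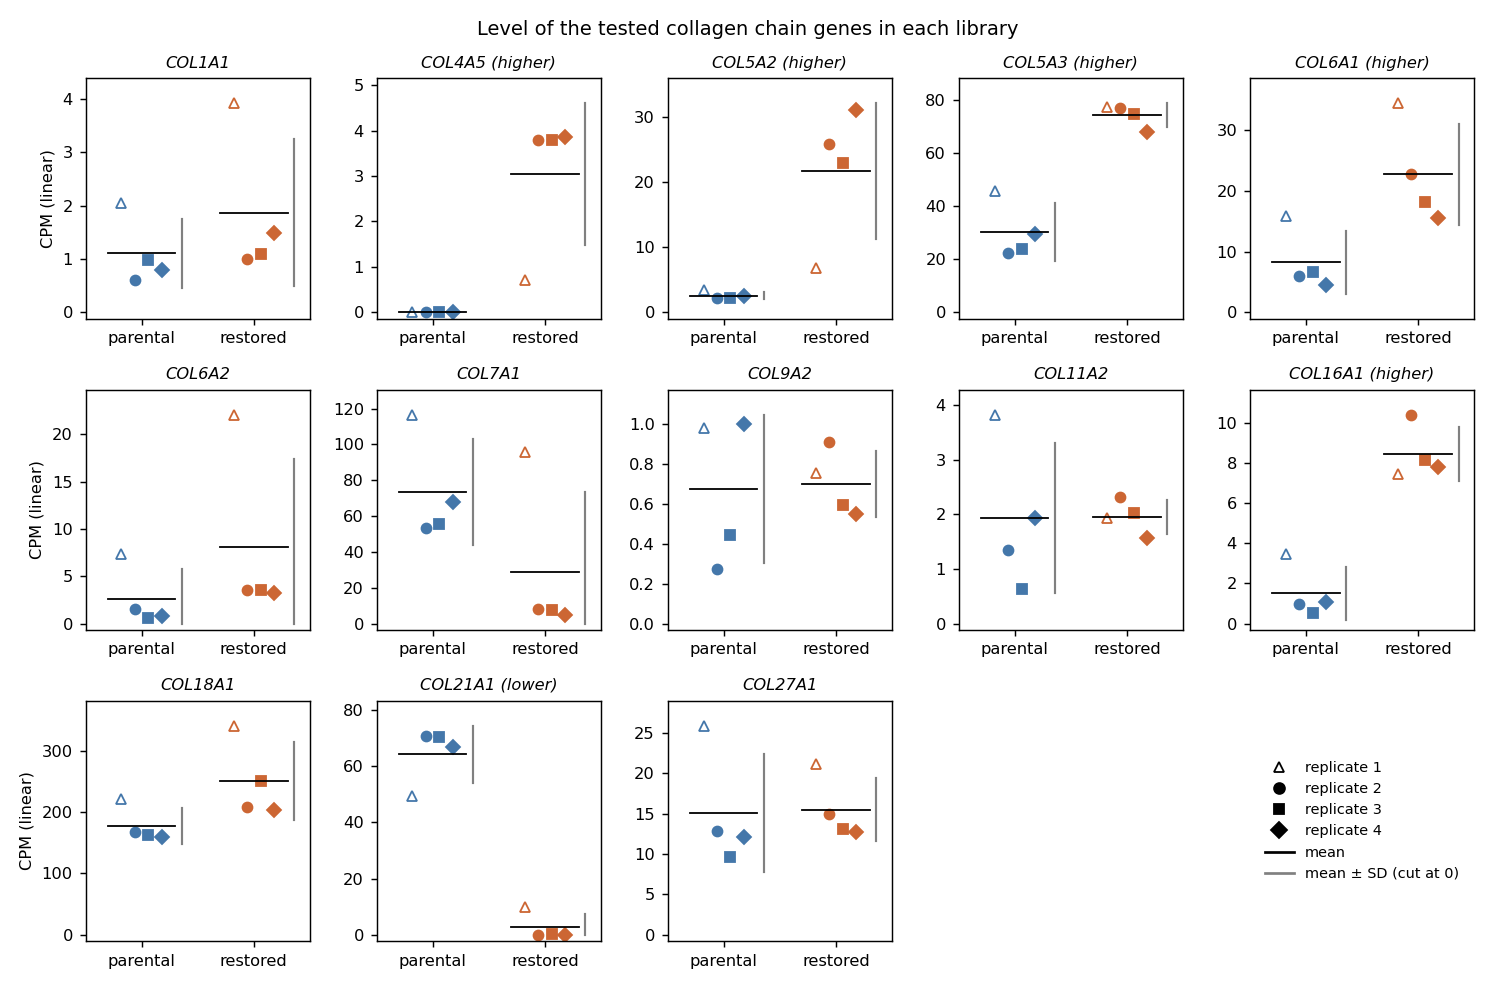
Level in CPM (linear axes, each panel with its own scale) of the 13 tested collagen chain genes in each of the 4 parental (blue) and 4 Axin1-restored (orange) libraries, with the group mean and the mean ± SD. COL5A3 lies at 67.7 to 77.2 CPM in the restored libraries and at 22.2 to 45.8 CPM in the parental ones, and the open triangle of replicate 1 stands apart for COL6A2 and COL7A1.

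The clearest appearance of chains from 0 counts was in type IV collagen. Its 6 genes lie in 3 pairs whose starts face each other across a short stretch of DNA, and the chains of the COL4A3 to COL4A6 genes build the specialised networks of kidney, lung and epithelial basement membranes, whereas COL4A1 and COL4A2 are the common chains of most basement membranes. In RefSeq (GRCh38.p14), 379 bases lie between the start of COL4A5 and the nearer of the 2 starts of COL4A6, 1415 bases between COL4A5 and the other one, 418 bases between COL4A3 and COL4A4, and 126 bases between COL4A1 and COL4A2. Stretches that lie between the facing starts and outside GENCODE exons are shown for COL4A5 with COL4A6 and, over 111 bases, for COL4A3 with COL4A4, because 3 of these 4 genes went from 0 counts in every parental library to counts in every Axin1-restored library. Capitals mark CCAAT boxes (CCAAT or, on the other strand, ATTGG) and GC boxes (GGGCGG or CCGCCC).
COL4A5, chrX:108439588-108439837, plus strand: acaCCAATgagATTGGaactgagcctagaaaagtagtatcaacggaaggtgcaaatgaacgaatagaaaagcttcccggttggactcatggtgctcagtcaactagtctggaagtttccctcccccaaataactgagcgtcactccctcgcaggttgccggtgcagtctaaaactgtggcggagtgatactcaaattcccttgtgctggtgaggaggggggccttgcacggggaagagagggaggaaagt
COL4A6, chrX:108439498-108439708, minus strand: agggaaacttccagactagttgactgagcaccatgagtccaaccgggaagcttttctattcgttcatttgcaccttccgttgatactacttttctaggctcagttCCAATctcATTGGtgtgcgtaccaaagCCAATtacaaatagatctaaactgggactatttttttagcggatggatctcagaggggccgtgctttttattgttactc
COL4A3 and COL4A4, chr2:227164454-227164564, plus strand: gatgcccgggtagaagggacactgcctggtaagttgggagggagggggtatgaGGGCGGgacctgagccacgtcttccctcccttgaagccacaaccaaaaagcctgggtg
The windows upstream of COL4A5 and of the nearer COL4A6 start share 121 bases, read on opposite strands, so the facing pair of CCAAT boxes in the first line is the same DNA as in the second. Another CCAAT box lies in the COL4A6 stretch only. The full window upstream of COL4A3 holds 2 GC boxes, of which the printed stretch contains 1.

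Matches of this kind are frequent. Of the 44 collagen genes, 32 had at least 1 window of 250 bases upstream of a start in the RefSeq table, 44 windows in all. On either strand, CCAAT was found in 12 of these 44 windows (27.3%) and in 32.0% of all 35116 windows, and at least 2 matches were found in 9.53% of all windows. The GC box GGGCGG was found in 24 of 44 (54.5%) against 42.6%, and TATAAA in 8 of 44 (18.2%) against 10.7%. The letters CTTTGAT, a core recognised by the TCF/LEF factors of Wnt signalling, were in 0 of 44 windows against 2.26% of all, and CTTTGTT in 1 of 44 (2.27%) against 4.50%. A match is a description of these letters and not a binding site, and windows of 1 gene or of a facing pair can overlap.

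COL4A5 (chrX:108439844-108697545, plus strand) had 0 counts in all 4 parental libraries. Its level was 0.717, 3.80, 3.79 and 3.86 CPM in Axin1-restored replicates 1 to 4, from 20, 46, 77 and 99 counts. Replicate 1 was well below the other 3, and the groups did not overlap, as was the case for 5 of the 13 tested chains and for 23.9% of all genes tested. Set against 3 counts in each parental library, the gene was at least 12.8-fold higher, with an adjusted p of 0.00254 (edgeR), and it was called under every alternative tried. With 0 parental counts, COL4A5 passed the expression filter through the restored libraries alone, and the filtered alternatives share this limit. With all libraries thinned to the smallest, its adjusted p was 0.00182.

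COL4A6 (chrX:108155607-108439497, minus strand), its partner across the shared stretch, also had 0 counts in all parental libraries and 9, 12, 30 and 42 counts in the Axin1-restored ones. These correspond to 0.323, 0.991, 1.48 and 1.64 CPM, at least 4.65-fold above 3 counts in each parental library. The gene fell short of the expression filter. In the fit without that filter, where 10.6% of 30224 genes were called, its adjusted p was 1.36e-06 (edgeR). That fit gave 1.52e-10 for COL4A5, against 0.00254 with the filter. The filtered edgeR fits that left out 1 library and tested COL4A6 gave 0.00123 to 0.0169. With 0 parental counts, COL4A6 entered those fits through its restored counts alone, so they are not separate support. Replicate 1 was again the lowest of the restored libraries, in COL4A5 and COL4A6 alike.

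COL4A4 (chr2:227002711-227164453, minus strand) repeated the pattern. It had 0 counts in the parental libraries and 18, 5, 21 and 33 in the Axin1-restored ones, or 0.646, 0.413, 1.04 and 1.29 CPM. The gene was at least 3.55-fold higher, with an adjusted p of 6.00e-06 in the edgeR fit without an expression filter. The filtered edgeR fits that left out 1 library and tested COL4A4 gave 0.00269 to 0.00846. COL4A4 too entered those fits through its restored counts alone, so they are not separate support. For COL4A4 replicate 2, not replicate 1, was the lowest of the restored libraries. COL4A3, which faces COL4A4, had 0, 1, 0 and 0 counts in the parental libraries and 3, 1, 0 and 6 in the restored ones, so the groups overlapped.

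The common basement membrane chains were almost absent in both groups. COL4A1 had 1 count in the parental and 3 in the Axin1-restored libraries in all. COL4A2 had 12 against 16, spread as 0, 1, 5 and 6 against 1, 0, 6 and 9. Neither could be compared at this depth. Per kilobase of exons, mean levels in the restored libraries were 0.257 CPM per kb for COL4A5, 0.119 for COL4A6 and 0.0839 for COL4A4.

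**Figure D2:**
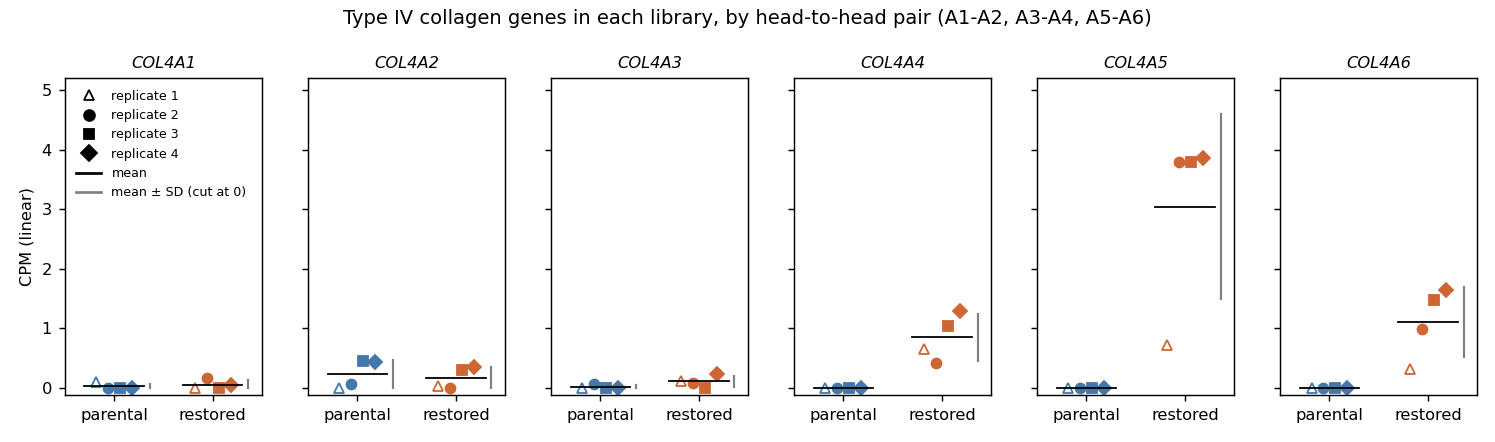
Level in CPM (linear, 1 common scale) of the 6 type IV collagen genes in each parental (blue) and Axin1-restored (orange) library, in the order of the facing pairs, with the group mean and mean ± SD. COL4A4, COL4A5 and COL4A6 sit at 0 in every parental library and above 0 in every restored one, up to 3.86 CPM for COL4A5.

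Among the fibrillar chains, the type V genes COL5A2 and COL5A3 rose. Type V collagen is a minor fibrillar collagen that is built into, and limits the width of, type I fibres. COL5A2 (chr2:189031896-189225312, minus strand) was at 3.38, 2.17, 2.14 and 2.58 CPM in the parental libraries and at 6.85, 25.8, 23.0 and 31.0 CPM in the Axin1-restored ones. Replicate 1 of the restored group lay between the parental libraries and the other 3, without overlap. Its log2 fold change was 3.08 (SE 0.42, 95% interval 2.16 to 3.99), with an adjusted p of 0.000871 (edgeR).

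COL5A3 (chr19:9959561-10010471, minus strand) was already one of the better expressed chains in the parental line, at 45.8, 22.2, 23.7 and 29.6 CPM. It reached 77.2, 77.0, 74.9 and 67.7 CPM in the Axin1-restored libraries. These 4 values were close together and all above the parental ones, replicate 1 included. The log2 fold change was 1.29 (SE 0.21, 95% interval 0.83 to 1.75), with an adjusted p of 0.00219 (edgeR). An unnamed antisense gene, with 5 counts in all, overlaps its exons. The use of strand in counting is not given in the sources used here.

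The chain that usually joins these 2 in a trimer was missing. COL5A1, found in nearly all known type V trimers, had 0 counts in the parental libraries and 2 in all in the Axin1-restored ones. Type V and type XI chains can also assemble with each other. COL11A2 stood at 3.83, 1.35, 0.624 and 1.93 CPM in the parental and at 1.94, 2.31, 2.02 and 1.56 CPM in the restored libraries, a log2 fold change of 0.01 (95% interval -0.96 to 0.99; adjusted p = 0.986, edgeR). Per kilobase of exons, the mean level of COL5A3 went from 4.49 to 11.0 CPM per kb and that of COL5A2 from 0.344 to 2.91, while COL11A2 stood at 0.287 and 0.290.

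COL11A1, the other type XI chain measured, had 2, 0, 0 and 0 counts in the parental libraries and 236, 4, 12 and 16 in the Axin1-restored ones. Nearly all of its reads came from Axin1-restored replicate 1, at 8.47 CPM, against 0.330 to 0.625 CPM in the other 3. The ratio of summed counts, scaled for depth, was 79.9 (95% exact interval 21.9 to 663, covering counting error only). Without that library, 32 counts against 2 gave a ratio of 14.1 (3.60 to 122). The gene did not pass the filter. In the edgeR fit of all 8 libraries without an expression filter its adjusted p was 1.91e-06. With all 8 libraries and genes kept at a mean of at least 1 CPM, it was 0.0232 (edgeR).

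COL1A1, the major chain of type I collagen, was low, at 2.05, 0.609, 0.980 and 0.787 CPM in the parental and 3.91, 0.991, 1.08 and 1.48 CPM in the Axin1-restored libraries. Replicate 1 was the highest of each group, and the groups overlapped. The log2 fold change of 0.81 (SE 0.53, 95% interval -0.35 to 1.97) had an adjusted p of 0.308 (edgeR), and it was 0.15 without Axin1-restored replicate 1. Its partner COL1A2 had 1 count in the 8 libraries together. COL27A1, a chain of cartilage and developing tissues, was at 25.9, 12.9, 9.62 and 12.2 CPM against 21.1, 14.9, 13.1 and 12.7 CPM, a log2 fold change of 0.04 (95% interval -0.61 to 0.69; adjusted p = 0.946, edgeR).

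Type VI collagen, whose usual trimer takes 1 chain each from COL6A1, COL6A2 and COL6A3, was uneven. COL6A1 (chr21:45981737-46005050, plus strand) was at 15.9, 6.03, 6.68 and 4.44 CPM in the parental libraries and at 34.4, 22.9, 18.1 and 15.5 CPM in the Axin1-restored ones. The groups overlapped only through parental replicate 1, which lay just above Axin1-restored replicate 4. The log2 fold change was 1.47 (SE 0.38, 95% interval 0.63 to 2.31), with an adjusted p of 0.0226 (edgeR). The call was lost when parental replicate 2, 3 or 4 was left out (adjusted p = 0.0724, 0.0585 and 0.0510), each time leaving replicate 1 among 3 parental libraries.

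COL6A2, next to COL6A1 on chromosome 21, was at 7.39, 1.49, 0.624 and 0.787 CPM in the parental and at 22.1, 3.55, 3.60 and 3.24 CPM in the restored libraries. In each group replicate 1 was several times higher than the others. With all 8 libraries the log2 fold change of 1.70 (SE 0.84, 95% interval -0.15 to 3.55) had an adjusted p of 0.183 (edgeR). Leaving out both replicate 1 libraries gave 1.80 with an adjusted p of 0.00113, in a fit that called 32.3% of genes. Leaving out only Axin1-restored replicate 1 gave 0.45 (adjusted p = 0.685), and only parental replicate 1 gave 3.05 (adjusted p = 0.0156).

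COL6A3, the largest chain of the trimer, was close to absent. It had 10 counts in the parental libraries and 9 in the Axin1-restored ones. Per kilobase of exons, COL6A1 stood at 1.55 and 4.26 CPM per kb in the parental and restored groups, COL6A2 at 0.477 and 1.51, and COL6A3 at 0.0101 and 0.00482. The chains that can replace it, COL6A5 and COL6A6, had 1 count each in all libraries.

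**Figure D3:**
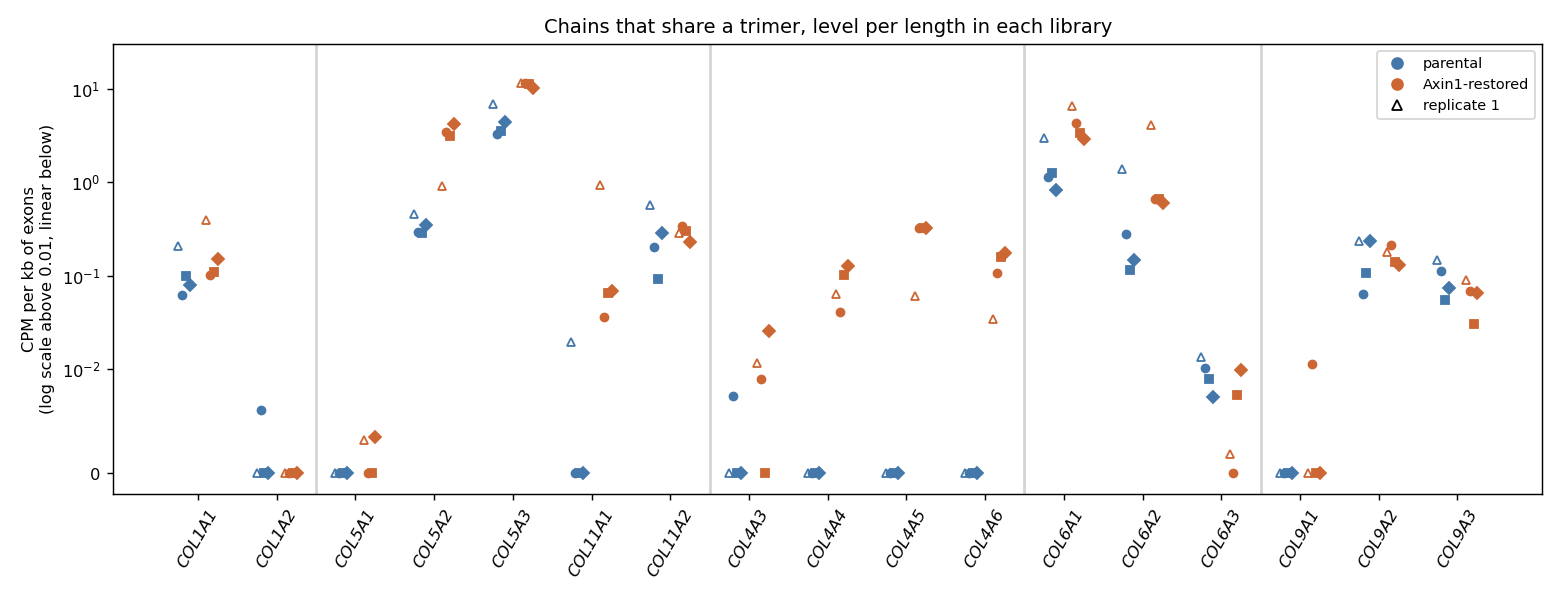
Level per length (CPM per kb of exons, log scale above 0.01 and linear below) of chains that can share a trimer, in each parental (blue) and Axin1-restored (orange) library; open triangles are replicate 1 and filled symbols the other replicates, and vertical lines separate collagen types I, V with XI, IV, VI and IX. COL1A2, COL5A1 and COL6A3 lie near the bottom in all libraries, while COL1A1, COL5A3 and COL6A1 of the same trimers lie above.

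The 2 fibril-associated chains that changed moved in opposite directions. COL16A1 (chr1:31652247-31704319, minus strand), a chain of fibrillin and collagen networks, was at 3.47, 0.948, 0.534 and 1.07 CPM in the parental and at 7.46, 10.4, 8.13 and 7.81 CPM in the Axin1-restored libraries. The groups did not overlap, although parental replicate 1 was over 3 times as high as any other parental library. On the log2 scale the change was 2.50 (SE 0.45, 95% interval 1.52 to 3.48; adjusted p = 0.00396, edgeR), and 3.27 without parental replicate 1. Its exons overlap those of PEF1-AS1 on the other strand, which had 23 counts in all.

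COL21A1 (chr6:56056590-56394094, minus strand), a fibril-associated chain of vessel walls and other tissues, was the only called chain that fell. It was at 49.3, 70.7, 70.3 and 66.8 CPM in the parental libraries, where with COL7A1 it followed COL18A1 in abundance. In the Axin1-restored libraries it was at 9.90, 0, 0.345 and 0.0390 CPM, from 276, 0, 7 and 1 counts. Replicate 1 was the only restored library with more than 7 counts. The log2 fold change was -4.51 (SE 1.02, 95% interval -6.76 to -2.27; adjusted p = 0.0126, edgeR), and -8.79 (adjusted p = 2.73e-06) without that library. Per kilobase of exons the mean fell from 9.08 to 0.363 CPM per kb.

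The other fibril-associated chains stayed low. COL9A2 was tested, with 0.674 ± 0.372 CPM in the parental and 0.700 ± 0.165 CPM in the restored libraries (SD, n = 4 each) and a log2 fold change of 0.04 (adjusted p = 0.961, edgeR). COL9A1 had 1 count in all and COL9A3 had 24 counts in the parental and 27 in the restored libraries, so the 3 chains of type IX were not all present at levels that could be measured. COL12A1 had 3 counts against 36, a depth-scaled ratio of 7.15 (95% exact interval 2.26 to 36.3) and an adjusted p of 0.0440 in the edgeR fit without an expression filter. COL14A1 had 0 counts in each parental library and 2, 4, 2 and 1 in the restored ones.

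COL7A1, which forms the anchoring fibrils that tie basement membrane to the tissue below, crossed the test's threshold when 1 library was left out. It was at 117, 53.1, 55.9 and 67.8 CPM in the parental libraries and at 96.0, 7.84, 7.29 and 4.76 CPM in the Axin1-restored ones. Restored replicate 1 lay within the parental range, and the other 3 were far below it. With all 8 libraries the log2 fold change of -1.32 (SE 0.82, 95% interval -3.12 to 0.47) had an adjusted p of 0.283 (edgeR). Without that library it was -3.48 with an adjusted p of 0.000102, in a fit that called 22.0% of genes. Leaving out both replicate 1 libraries gave -3.17 (adjusted p = 1.17e-07).

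The same library held COL21A1 at 9.90 CPM, COL4A5 at 0.717 CPM and COL5A2 at 6.85 CPM, each closer to the parental values than were the other 3 restored libraries. For COL1A1, COL5A3, COL6A1, COL6A2, COL11A1 and COL18A1 it was the highest of all 8 libraries. The reason that this library stands apart was not tested.

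COL18A1, a basement membrane proteoglycan whose end fragment is endostatin, was the most abundant chain in CPM and in CPM per kb. It was at 222, 168, 162 and 159 CPM in the parental and at 341, 209, 251 and 203 CPM in the Axin1-restored libraries. Parental replicate 1 lay within the restored range, so the groups overlapped. The log2 fold change was 0.50 (SE 0.18, 95% interval 0.09 to 0.90) with an adjusted p of 0.0828 (edgeR), which moved past the threshold without parental replicate 1 (0.62, adjusted p = 0.0236). The gene shares 1401 exonic bases with SLC19A1 on the other strand, which had 5250 counts in all. Per kilobase of exons it stood at 20.8 and 29.4 CPM per kb.

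**Figure D4:**
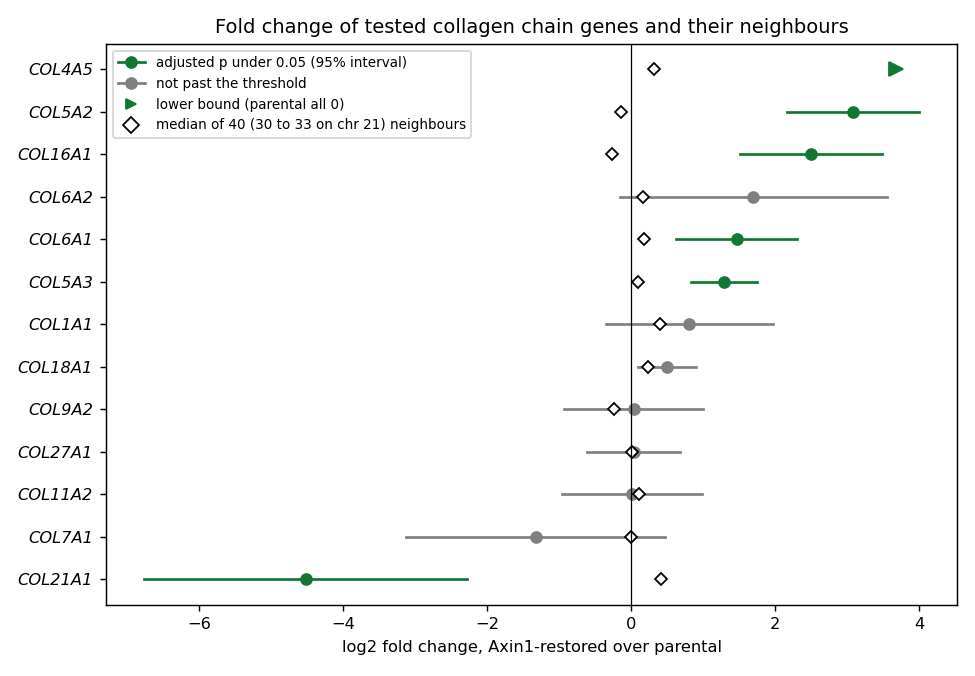
Log2 fold change of the 13 tested collagen chain genes with 95% interval (green where the adjusted p is under 0.05, grey otherwise; the triangle marks the lower bound of COL4A5), and as open diamonds the median of their tested neighbours on the chromosome. The neighbours' medians lie between -0.27 and 0.41. COL5A2 lies at 3.08 and COL21A1 at -4.51, as single genes called for their change.

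Genes beside the called chains had medians smaller in absolute value than the fold changes of the chains themselves. The called chains all changed by at least 1, and a median over many genes tends to lie near 0, so this was likely in advance. The median log2 fold change of the 20 tested genes on each side was -0.13 around COL5A2, 0.10 around COL5A3, -0.27 around COL16A1, 0.32 around COL4A5 and 0.41 around COL21A1. COL6A1, near the end of chromosome 21, had 31 such neighbours with a median of 0.18. The genes that flank the COL4A5 and COL4A6 pair, ATG4A and NXT2, had log2 fold changes of -0.05 and 0.37 (adjusted p = 0.849 and 0.444, edgeR). GULP1, beside COL5A2 and the nearly silent COL3A1, was called higher at 0.99 (adjusted p = 0.0213, edgeR). Around COL1A1, 16 of 40 neighbours were higher, against 10.4% of all genes tested, and the median was 0.41. Of 40 neighbours each, 12 were higher and 5 lower around COL21A1, 1 and 10 around COL16A1, and 8 and 3 around COL4A5. The counts were 5 and 0 around COL5A3, 2 and 3 around COL5A2, and 1 and 0 of 31 around COL6A1. Over all genes tested 8.77% were lower. DST, beside COL21A1, was called lower at -0.48 (adjusted p = 0.0184, edgeR). No test of the neighbourhoods was made.

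Of 95 genes that modify, fold, process, crosslink, bind or degrade collagen, 60 were tested, 18 were higher and 8 lower, which is 43.3% of those tested against 19.2% of all genes. Their median log2 fold change was 0.22. Exons of CRTAP, P4HA1, P4HA2, PLOD3, PPIB, PCOLCE, TGM2, ITGA1, ITGB1, ITGA10, MMP16 and HSPG2 overlap genes on the other strand. Reads of such genes may not have been kept apart. The overlapping genes held 15504 counts for PLOD3, 4552 for TGM2, 2899 for PPIB and 1083 for ITGB1. They held 102 for HSPG2, 28 for PCOLCE, and at most 13 for CRTAP, P4HA1, P4HA2, ITGA10 and MMP16. Exons of ITGA1 also overlap PELO and RPL17P21 on the same strand. All genes that overlap ITGA1 had 4818 counts together, against 1823 parental and 6404 restored counts of ITGA1.

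The enzymes that hydroxylate and glycosylate collagen in the endoplasmic reticulum split, with 4 of 13 tested higher and 5 lower (69.2% called). CRTAP, a subunit of the prolyl 3-hydroxylation complex, went from 192, 191, 195 and 165 CPM to 324, 339, 356 and 362 CPM, a log2 fold change of 0.89 (SE 0.11; adjusted p = 0.000603, edgeR). COLGALT1, which adds galactose to hydroxylysine, rose by 0.80 (adjusted p = 0.0155). P4HA1, a catalytic subunit of prolyl 4-hydroxylase, fell by 0.78 (adjusted p = 0.0137), whereas P4HA2, another catalytic subunit, rose by 0.82 (adjusted p = 0.0362). P3H3, a prolyl 3-hydroxylase family member, had a log2 fold change of -3.50 (adjusted p = 0.00115) from a level of only 2.35 CPM, and -4.40 without Axin1-restored replicate 1. It shares exonic bases with GPR162 on the same strand. P3H4 was also higher (adjusted p = 0.0274, edgeR). PLOD2, PLOD3 and PPIB were lower (adjusted p = 0.0462, 0.0233 and 0.0476, edgeR). The groups overlapped for PLOD2 and P4HA2.

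Among the 13 genes of folding and secretion, all tested, 3 were higher and 0 lower, which is 23.1% and near the 19.2% called over all genes. TRAPPC2, needed for the export of large procollagen, rose by 0.86 (adjusted p = 0.00837, edgeR), CREB3L2, a transcription factor of secretory genes, by 0.78 (adjusted p = 0.0159) and KLHL12, an adaptor for large transport carriers, by 0.43 (adjusted p = 0.0332). KLHL12 lost its call in 7 of the alternatives. CREB3L2 lost its call without Axin1-restored replicate 3 and without Axin1-restored replicate 4 (adjusted p up to 0.0556, edgeR). SERPINH1, the collagen chaperone HSP47, was at 232 ± 9.13 CPM and 215 ± 18.4 CPM (SD, n = 4 each), with a log2 fold change of -0.11 (95% interval -0.36 to 0.13; adjusted p = 0.504, edgeR).

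Both enhancers of procollagen C-proteinase fell. PCOLCE2 went from 12.3, 26.7, 25.8 and 31.3 CPM to 9.08, 4.13, 4.34 and 4.45 CPM, a log2 fold change of -2.11 (SE 0.33; adjusted p = 0.00183, edgeR). PCOLCE went from 15.8, 8.80, 10.8 and 11.0 CPM to 5.74, 4.62, 5.32 and 3.32 CPM, a log2 fold change of -1.28 (adjusted p = 0.00512). The groups did not overlap for either gene. They were the only 2 called among the 5 tested genes of propeptide processing.

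TGM2, the tissue transglutaminase that crosslinks matrix proteins, was the only called gene of 3 tested in crosslinking (33.3%). It was at 155, 244, 214 and 232 CPM in the parental and 714, 453, 573 and 513 CPM in the Axin1-restored libraries, a log2 fold change of 1.41 (SE 0.18; adjusted p = 0.000691, edgeR).

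Of 8 tested receptors, 4 were higher and 0 lower (50.0% called). ITGA1, the alpha chain of a collagen-binding integrin, was at 27.0, 37.8, 38.5 and 37.9 CPM against 63.2, 67.4, 72.0 and 92.3 CPM, a log2 fold change of 1.06 (SE 0.16; adjusted p = 0.00162, edgeR). Its beta partner ITGB1 had a log2 fold change of 1.11 (SE 0.27; adjusted p = 0.0178), and the call was lost without Axin1-restored replicate 4 (0.96, adjusted p = 0.0610). ITGA10, another collagen-binding alpha chain, rose by 1.26 (adjusted p = 0.0224) and ADGRG6, an adhesion receptor that binds type IV collagen, by 0.92 (adjusted p = 0.0315). Each of these 2 lost its call in 4 of the alternatives that left out 1 library.

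In collagen breakdown 4 of 11 tested genes were higher and 0 lower (36.4% called), with a median log2 fold change of 0.84. MMP14, a membrane-bound collagenase, was at 19.2, 13.7, 13.0 and 7.80 CPM in the parental and at 111, 60.8, 75.2 and 65.5 CPM in the Axin1-restored libraries, a log2 fold change of 2.54 (SE 0.27; adjusted p = 0.000222, edgeR). RECK, a membrane inhibitor of such enzymes, rose by 1.43 (adjusted p = 0.00183). MMP15 rose by 0.84 (adjusted p = 0.0257) and MMP16 by 2.13 (adjusted p = 0.0344), both membrane-bound relatives of MMP14, and each lost its call when some single libraries were left out. MMP16 also lost its call with limma-voom. Its groups overlapped, with Axin1-restored replicate 1 at 0.861 CPM and the parental libraries at 0.267 to 1.78 CPM.

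Of 7 tested matrix partners, 2 were higher and 1 lower (42.9% called). HSPG2, the basement membrane proteoglycan perlecan, went from 53.0 ± 5.21 to 135 ± 31.1 CPM (SD, n = 4 each), which is 1.35 on the log2 scale (adjusted p = 0.000493, edgeR). MATN2, a matrilin, rose by 1.44 (adjusted p = 0.0208) from a level near 2 CPM, a call lost without Axin1-restored replicate 4 (adjusted p = 0.0605). FN1, the fibronectin on which collagen fibres are laid down, was at 546, 1356, 1282 and 1052 CPM in the parental and at 626, 383, 384 and 434 CPM in the restored libraries, a log2 fold change of -1.21 (SE 0.27; adjusted p = 0.0121). The groups overlapped, since parental replicate 1 was lower than Axin1-restored replicate 1.

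**Figure D5:**
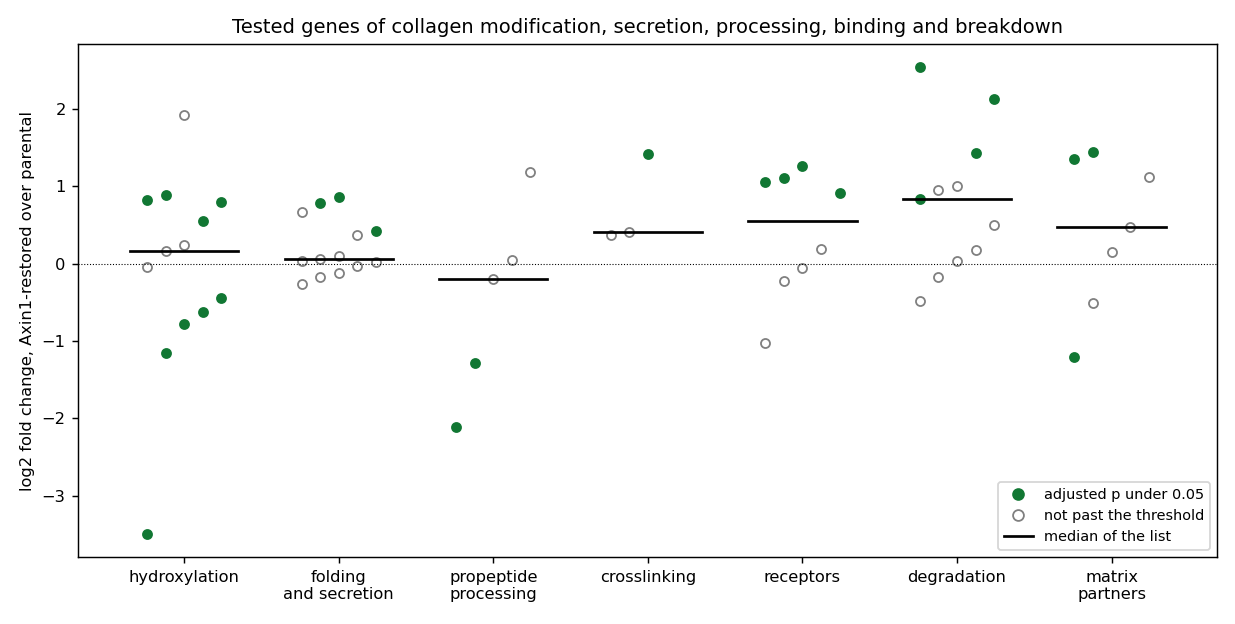
Log2 fold change of the 60 tested genes of the 7 collagen partner lists, with filled points for an adjusted p under 0.05 and a bar at each list's median. The medians run from -0.20 for propeptide processing to 0.84 for degradation, MMP14 is the highest called point at 2.54 and P3H3 the lowest at -3.50.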

How the data were processed

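The authors deposited raw read counts per gene, not normalized, in 1 table for all 8 libraries. Per the submitters' processing notes, bcl2fastq, fastp 0.23.1, STAR 2.7.4 and GRCh38 were used; the counting program, annotation and use of strand are not given in the sources used here. All 8 count columns were matched to samples by the column names in the labels. Gene positions, exon lengths and overlaps are from GENCODE 29 (57943 of 58206 identifiers found), and promoter windows from RefSeq (GRCh38.p14).

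The test used edgeR 4.0.16 in R 4.3.3, with filterByExpr (minimum count 10, minimum total 15), TMM scaling, and a two-sided quasi-likelihood test of the 2 groups without covariates, adjusted by Benjamini-Hochberg over 14289 genes at 0.05. CPM uses TMM-scaled totals. A standard error is the absolute log2 fold change divided by the root of F, and intervals are at 95%. Where all parental libraries held 0 counts, folds are lower bounds against 3 counts per library. No replicate pair agreed within sampling noise (chi-square per degree of freedom at least 9.09). The script was tested on simulated data.

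The collagen genes, the partner and marker lists and the tests were chosen with earlier results of these data known. Values per library are given for every called chain, every tested chain averaging at least 10 CPM, and chains of the same trimer or facing pair; from each partner list, the called genes with the smallest p, at most 4, plus ITGB1 and SERPINH1. COL1A1, COL11A1, COL12A1, COL14A1, P4HA2, ATG4A, NXT2 and GULP1 were named after their values were seen.

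As alternatives, scaling was by upper quartiles, total counts or DESeq2 size factors; genes were unfiltered or kept at a mean of 1 CPM; the test was DESeq2 1.42.0 or limma-voom (limma 3.58.1); the replicate number was a block; counts were thinned to 11232951; the threshold was 0.01; and each library was left out in turn. Leaving out both replicate 1 libraries, and taking the COL11A1 ratio without Axin1-restored replicate 1, were chosen after seeing the data.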

Additional observations from a re-analysis of the deposited data

Results flagged for a closer look

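In groups of 4 libraries, a library was singled out when its gap to the nearest other on the log2 CPM scale exceeded Dixon's 95% critical value. Among 72 groups of 4 examined, 10 were singled out, and chance gives about 1 in 20. Of these, 4 were in Axin1-restored replicate 1 and 4 in parental replicate 1.

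Axin1-restored replicate 1 was lowest for COL4A5 (0.717 CPM, others 3.79 to 3.86) and highest for COL6A2 (22.1 CPM, others 3.24 to 3.60), COL7A1 (96.0 CPM, others 4.76 to 7.84) and the procollagen C-proteinase enhancer PCOLCE2 (9.08 CPM, others 4.13 to 4.45). Parental replicate 1 was lowest for COL21A1 (49.3 CPM, others 66.8 to 70.7), MATN2 (0.890 CPM, others 2.36 to 2.44), ITGA1 (27.0 CPM, others 37.8 to 38.5) and ADGRG6 (24.0 CPM, others 52.2 to 55.3). CRTAP was lowest in parental replicate 4 (165 CPM, others 191 to 195), and AXIN1 in Axin1-restored replicate 4 (37.7 CPM, others 47.6 to 48.2).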

How the results depend on the processing

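COL4A5, COL5A2, COL5A3, COL16A1 and COL21A1 were called at an adjusted p of 0.05 under every alternative. Where a filter was used, COL4A5 passed it through the restored libraries alone. Without an expression filter, the count of 6 called chains became 13 (11 higher, 2 lower) of 42 tested. That fit called 10.6% of all genes, against 19.2% in the main fit, and added COL4A4, COL4A6, COL6A2, COL7A1, COL11A1, COL12A1 and COL18A1. Without both replicate 1 libraries the count was 10 (8 higher, 2 lower) of 13 tested, in a fit that called 32.3% of all genes. It added COL4A6, COL6A2, COL7A1 and COL18A1. Leaving out each library in turn gave 6 to 10, the highest without parental replicate 1. Without Axin1-restored replicate 1 it was 8, in a fit that called 22.0% of all genes. Shares over all genes are not given for the other settings. Counts there, of chains or of partner genes, cannot be told from a change in calls over all genes. At an adjusted p under 0.01 the count of called chains was 4, without COL6A1 and COL21A1. The median log2 fold change ran from 0.38 to 1.56. COL7A1 was called lower with limma-voom (-2.34, adjusted p = 0.0429). The 26 called partner genes became 10 at an adjusted p under 0.01. With 1 library left out there were between 14 (without Axin1-restored replicate 4) and 29 (without Axin1-restored replicate 1). There were 16 each without parental replicate 2 and without Axin1-restored replicate 3. Without both replicate 1 libraries, 35 (24 higher, 11 lower) of 61 tested were called.

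Chains with fold changes near 0 changed sign, none of them called: COL11A2 (-0.10) and COL27A1 (-0.017) with thinned counts, and between -0.24 and 0.32 for COL9A2, -0.27 and 0.55 for COL11A2 and -0.16 and 0.42 for COL27A1 when libraries were left out. Over the 13 chains, 199 of 229 values under an alternative kept direction and side of the threshold, 3 lost and 13 gained a call and 14 changed sign. For the 22 named partner genes 365 of 396 did, and 31 lost a call. Causes were not tested.

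Libraries with the same number deviated together little (correlations -0.06, 0.01, -0.03 and 0.23; the own number was best in 1 of 4), so the numbers were not taken as pairs. With the replicate block, 8 chains (6 higher, 2 lower) and 22 partner genes were called; COL6A2 (1.77, adjusted p = 0.00652) and COL7A1 (-2.47, adjusted p = 0.0235) were added, while of the named partner genes KLHL12 (adjusted p = 0.0877), MATN2 (0.0618) and FN1 (0.0518) were not called. Depth limits the 31 untested chains: 3 counts are 0.108 to 0.267 CPM.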
